A study of Mus musculus with 12 samples.

Results

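The 10 genes described here are Nfe2l2, which encodes the transcription factor NRF2, its inhibitor Keap1, and 8 antioxidant genes under NRF2 control. They are Hmox1, Nqo1, Gclm, Gclc, Slc7a11, Txnrd1, Srxn1 and Prdx1. They are 10 of the 20661 autosomal protein-coding genes of the RefSeq table and were chosen by pathway with results of these data already seen, among them the peak calls of KO and WT libraries at the end of Hmox1. Each gene is followed across every library by the ATAC-seq peaks that overlap it or the 50 kb on each side. Peaks sharing at least 1 bp were joined across libraries, and 212 of the resulting 147937 regions lie in these windows.

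The series asked how loss of Baf60a, the product of Smarcd1 and part of the chromatin remodeller SWI/SNF, changes open chromatin in mouse bone marrow-derived macrophages (BMDMs). ATAC-seq uses a transposase to cut and tag DNA that is not wrapped up, and the deposited files hold the peaks called in each of 12 libraries. One cohort, called the ApoE KO cohort, holds 2 libraries in each of 4 groups: Baf60a KO with oxLDL, WT with oxLDL, KO untreated and WT untreated. KO and WT without a further word refer to Baf60a. Its KO cells are labelled Baf60af/f, Lyz2 Cre+ and its WT cells carry the floxed allele without Cre, and all 8 libraries are on an ApoE KO background. Lyz2 Cre acts in myeloid cells, so the deletion follows the cells that express lysozyme. These libraries came from cryopreserved cells and a Nextera kit. The Omni-ATAC cohort holds 1 library in each of the same 4 groups, made from cell suspensions by the Omni-ATAC method. The labels there give KO or WT with neither the alleles nor the ApoE status. Oxidised LDL (oxLDL), the modified lipoprotein that fills macrophages with cholesterol, was given at 50 µg/ml for 48 h. Whether replicates are separate animals or cultures is not in the labels, and the spread behind each p-value may therefore be technical.

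Lists of the ApoE KO cohort held 24397 to 44524 peaks and those of the Omni-ATAC cohort 82177 to 141441. Cohort, protocol, cell handling and peak caller change together and cannot be told apart. Peaks lay within 1 kb of a boundary of 8 to 10 of 10 macrophage marker genes in each ApoE KO cohort library and of 10 of 10 in each Omni-ATAC library. For B cell markers this was 0 to 1 of 4 in the ApoE KO cohort and 2 to 4 of 4 in the Omni-ATAC cohort, and for neutrophil markers 1 of 4 in the ApoE KO cohort and 1 to 2 of 4 in the Omni-ATAC cohort. T and NK cell markers reached at most 3 of 5, erythroid markers 2 of 4 and fibroblast markers 1 of 4 in any library. The part of other cell types in the results was not tested.

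NRF2 is held in the cytoplasm by KEAP1, which presents it to a ubiquitin ligase for destruction. Oxidants and electrophiles modify cysteines of KEAP1, NRF2 then collects in the nucleus, pairs with a small MAF protein and binds the antioxidant response element. The genes it switches on make glutathione, reduce thioredoxin and peroxiredoxin, and break down heme, and in macrophages oxidised lipids are among the known triggers. BACH1 occupies the same elements and represses Hmox1 until heme displaces it.

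Copies of that element were looked for in the promoters of these genes. Promoters in the RefSeq table (build GRCm38.p6, the assembly of mm10) run from 250 bases before to 50 bases after each listed start. It holds 10 promoters of 8 of the 10 genes and none of Hmox1 or Gclc. The element was searched on both strands as TGACNNNGC, and the related AP-1 site as TGACTCA; the letters TGACTCAGC fit both, so matches can overlap. TGACNNNGC is present in 5 of the 10 promoters, and in 4071 of all 32851 promoters of this length (12.4%). TGACTCA is present in 2 of the 10, and in 1709 of the 32851 (5.20%). The listed promoters of Keap1, Nqo1 and Slc7a11 hold no match to either motif. The stretches below are written 5′ to 3′ on the gene's own strand, with the matched letters of either motif in capitals. A match on the opposite strand reads as its reverse complement. The first 3 show the single element upstream of the start of Nfe2l2 (chr2:75704869-75704913, minus strand), Gclm (chr3:122245398-122245457, plus strand) and Txnrd1 (chr10:82859089-82859148, plus strand).
Nfe2l2: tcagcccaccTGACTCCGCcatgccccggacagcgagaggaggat
Gclm: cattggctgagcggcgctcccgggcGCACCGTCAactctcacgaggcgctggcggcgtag
Txnrd1: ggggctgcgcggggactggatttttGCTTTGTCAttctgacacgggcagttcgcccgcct
The other two are given over the 250 bases before the start, because they hold several matches each. They are Srxn1 (chr2:152105274-152105523, plus strand) and Prdx1 (chr4:116685349-116685598, plus strand).
Srxn1: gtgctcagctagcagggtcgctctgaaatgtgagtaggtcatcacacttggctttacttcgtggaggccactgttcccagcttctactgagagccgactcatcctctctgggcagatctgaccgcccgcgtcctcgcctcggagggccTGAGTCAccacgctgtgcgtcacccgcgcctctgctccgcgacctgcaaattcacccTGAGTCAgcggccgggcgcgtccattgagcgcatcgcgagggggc
Prdx1: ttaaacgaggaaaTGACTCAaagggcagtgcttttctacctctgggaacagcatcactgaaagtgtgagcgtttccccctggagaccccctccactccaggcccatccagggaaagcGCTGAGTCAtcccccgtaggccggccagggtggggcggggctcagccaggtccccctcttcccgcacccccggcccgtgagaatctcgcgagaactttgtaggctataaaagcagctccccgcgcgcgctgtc
In Prdx1 the match that begins at position -133 from the start fits both motifs. Srxn1 has its TGACNNNGC match 28 bases after the start, outside the stretch shown. A called peak lay over every one of these matches in 12 of 12 libraries, except the Prdx1 match farthest from the start, which was covered in 9. A match describes letters in this window and is not evidence of binding.

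The starts of the 10 genes were open almost throughout. A region over the start was called in all 12 libraries for 8 of the 10 genes, against 8692 of 20661 autosomal protein-coding genes (42.1%), where for a gene without a listed strand either boundary counted. The exceptions were Keap1, not called in 1 KO untreated library of the ApoE KO cohort, and Nqo1, not called in 1 WT oxLDL library of the same cohort. Each was called in the other 11. Other genes of the pathway did likewise, with 37 of 44 starts (84.1%) called in all 12. Among them were those of Cul3 and Rbx1, which form the ligase that KEAP1 recruits, of Bach1, and of Sqstm1, whose protein p62 sequesters KEAP1. The start of Slc40a1, the iron exporter ferroportin, was called in 0 libraries.

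How strong a start peak was is given by its score percentile, the share of a library's own peaks with a lower caller score. Both the score and the fold enrichment are the authors' values for single peaks. A percentile of this kind depends on the length of the list, so values are described within a cohort and are not tested.

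**Figure D1:**
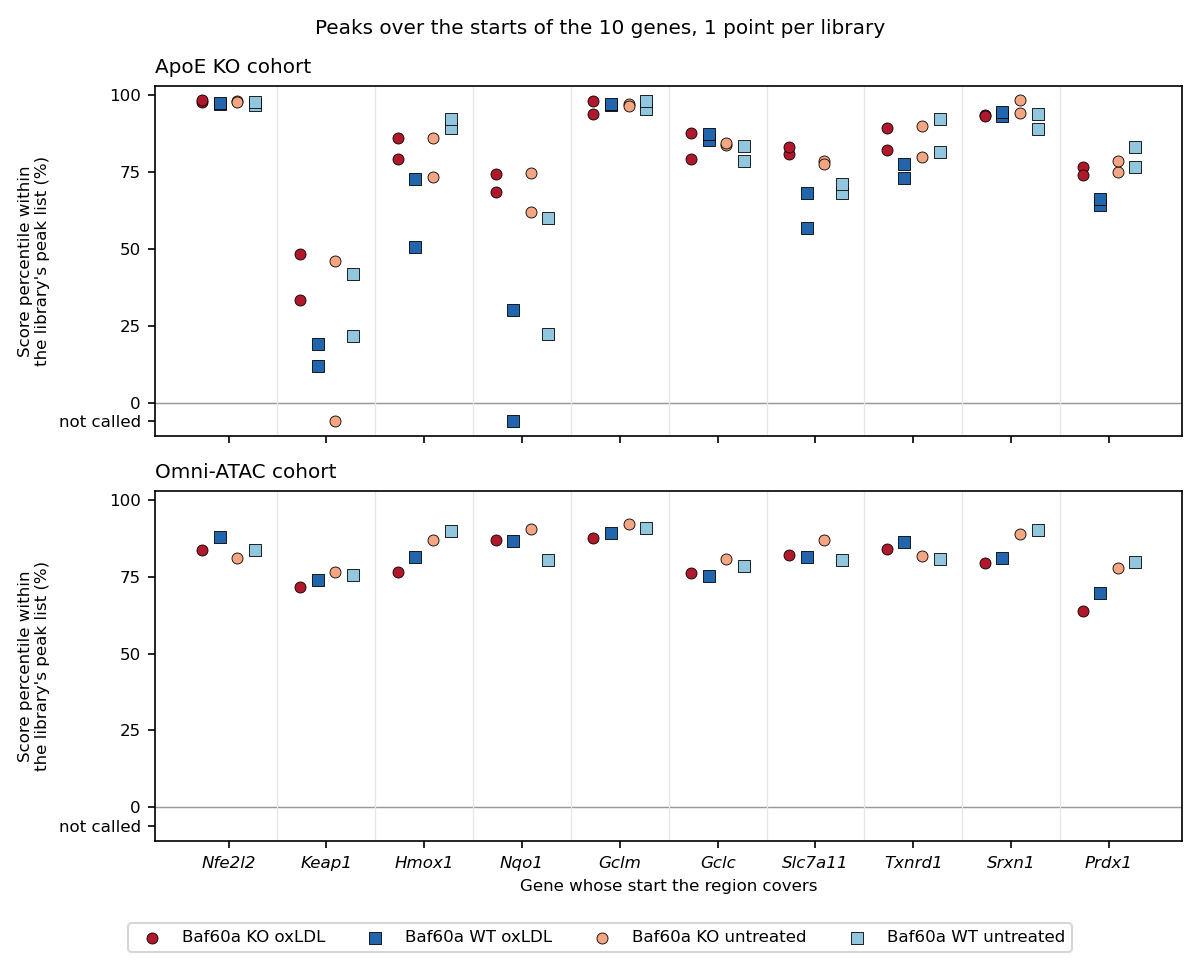
Score percentile within the library's own peak list (vertical axis, %) of the peak over the start of each of the 10 genes, 1 point per library, in the ApoE KO cohort (top) and the Omni-ATAC cohort (bottom); colour and symbol give genotype and treatment, and points under the line at 0 were not called. Nfe2l2, Gclm and Srxn1 sit near the top in the ApoE KO cohort, and Keap1 and Nqo1 are the only genes with a library in which the start was not called.

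The regulators differed from each other. The Nfe2l2 start region (mm10, chromosome 2, 75703375 to 75705515) was among the strongest peaks of the ApoE KO cohort. Its percentiles there were 97.6 and 98.5 in KO oxLDL libraries, 97.3 and 97.6 in WT oxLDL libraries, 98.2 and 97.7 in KO untreated libraries, and 97.0 and 97.7 in WT untreated libraries. Treatments overlapped within each genotype, and genotypes overlapped without oxLDL. With oxLDL both KO libraries were above both WT libraries, at the closest 97.64 against 97.62. Among the regions called in every library these overlapped (95.2 and 97.0 in KO, 95.7 and 96.7 in WT). The deposited fold enrichment was 6.46 to 8.66. In the Omni-ATAC cohort the same region stood at 83.8 in KO oxLDL, 87.9 in WT oxLDL, 81.2 in KO untreated and 83.8 in WT untreated cells. It was broad, 1556 to 2132 bp over the 12 libraries. Keap1, the sensor, had the weakest start of the 10 in the ApoE KO cohort (chromosome 9, 21237248 to 21239433). It reached 33.3 and 48.3 in KO oxLDL, 18.95 and 12.1 in WT oxLDL, 46.1 in the 1 KO untreated library that called it, and 21.8 and 41.7 in WT untreated libraries. Both KO oxLDL libraries, whose lists are longer, were thus above both WT oxLDL libraries on this scale. The untreated genotypes overlapped once the uncalled library is counted. The Omni-ATAC cohort put Keap1 at 71.7 in KO oxLDL, 74.0 in WT oxLDL, 76.5 in KO untreated and 75.6 in WT untreated cells. Its peaks were 179 to 841 bp wide in the ApoE KO cohort and 1683 to 2186 bp in the Omni-ATAC cohort.

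Gclm and Gclc encode the modifier and catalytic subunits of glutamate-cysteine ligase, the first step of glutathione synthesis, and Slc7a11 the transporter that brings in its cystine. The Gclm start (chromosome 3, 122245145 to 122246412) ranged over 93.8 to 98.2 in the 8 ApoE KO cohort libraries and 87.5 to 92.3 in the 4 Omni-ATAC libraries, and its groups overlapped in the ApoE KO cohort. The Gclc start (chromosome 9, 77754370 to 77755242) ranged over 78.5 to 87.8 in the ApoE KO cohort and 75.1 to 80.8 in the Omni-ATAC cohort. In the ApoE KO cohort WT untreated libraries (83.4 and 78.5) were below WT oxLDL (85.3 and 87.3) and KO untreated ones (83.7 and 84.4). Among the regions called in every library, WT oxLDL (76.8 and 82.2) was still above WT untreated (72.4 and 51.9). KO untreated (58.5 and 70.3) overlapped WT untreated there. KO oxLDL overlapped KO untreated on both scales. Within the full lists KO oxLDL (79.2 and 87.8) also overlapped WT oxLDL. Among the regions called in every library both KO oxLDL libraries (58.5 and 76.2) were below both WT oxLDL libraries, at the closest 76.2 against 76.8. At both genes the 2 untreated Omni-ATAC libraries, whose lists are longer, were above the 2 oxLDL libraries of that cohort. Slc7a11 was different (chromosome 3, 50443300 to 50444448). Its percentiles in the ApoE KO cohort were 80.8 and 83.3 in KO oxLDL, 56.9 and 68.0 in WT oxLDL, 78.5 and 77.6 in KO untreated, and 68.1 and 71.2 in WT untreated libraries. All 4 KO libraries were above all 4 WT libraries there on this scale. Ranked among the regions called in every library, the same peaks lay at 45.7 to 67.7 in KO against 34.7 to 55.6 in WT libraries and overlapped. Within oxLDL the KO libraries (61.5 and 67.7) were still above the WT libraries (34.7 and 55.6) in that ranking. Untreated libraries overlapped there (45.7 and 57.7 in KO, 47.7 and 37.4 in WT). The Omni-ATAC values were 82.0 in KO oxLDL against 81.3 in WT oxLDL, and 86.9 in KO untreated against 80.5 in WT untreated cells.

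Among the redox enzymes, Txnrd1, Srxn1 and Prdx1 recycle oxidised thiols: thioredoxin reductase 1 reduces thioredoxin, sulfiredoxin repairs over-oxidised peroxiredoxins, and peroxiredoxin 1 destroys peroxide. The Txnrd1 region (chromosome 10, 82858450 to 82861155) covers 2 of the 3 listed starts of that gene and its peaks were 1634 to 2580 bp wide. Txnrd1 stood between 73.0 and 92.3 in the ApoE KO cohort and between 80.8 and 86.3 in the Omni-ATAC cohort. With oxLDL both KO libraries of the ApoE KO cohort (89.5 and 82.0) were above both WT libraries (77.6 and 73.0). Among the regions called in every library this held (78.6 and 65.3 against 64.7 and 62.4). The untreated genotypes overlapped on both scales. In the Omni-ATAC cohort KO oxLDL was lower than WT oxLDL (84.0 against 86.3). Srxn1 (chromosome 2, 152104686 to 152106501) had 93.7 and 93.3 in KO oxLDL, 93.2 and 94.5 in WT oxLDL, 98.3 and 94.2 in KO untreated, and 89.0 and 93.8 in WT untreated libraries. The Omni-ATAC values for Srxn1 were 79.4 in KO oxLDL and 81.0 in WT oxLDL, against 88.8 in KO untreated and 90.3 in WT untreated cells. Prdx1 (chromosome 4, 116685153 to 116686153) had 76.6 and 74.2 in KO oxLDL, 64.3 and 66.3 in WT oxLDL, 74.99 and 78.5 in KO untreated, and 76.6 and 83.3 in WT untreated libraries. The 2 WT oxLDL libraries, whose lists are the shortest, were the lowest of the 8 for Prdx1 on this scale. Among the regions called in every library the lowest was a KO untreated library at 37.7, and WT oxLDL (44.6 and 53.2) overlapped KO oxLDL (53.8 and 51.2). Its Omni-ATAC values were 63.8 in KO oxLDL and 69.8 in WT oxLDL, against 77.9 in KO untreated and 79.8 in WT untreated cells.

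Nqo1, a quinone reductase and a standard readout of NRF2, had a start (chromosome 8, 107402786 to 107403992) that spread more widely. It reached 74.4 and 68.4 in the KO oxLDL libraries of the ApoE KO cohort, and 30.2 in 1 WT oxLDL library while the other had no call. KO untreated libraries had 62.1 and 74.6, and WT untreated libraries 22.3 and 60.1. All 4 KO libraries were therefore above every WT library of that cohort on this scale, at the closest 62.1 against 60.1. KO lists there held 33267 to 44524 peaks and WT lists 24397 to 39303. Nqo1 has no rank among the regions called in every library to set beside it. In the Omni-ATAC cohort Nqo1 was at 86.9 in KO oxLDL against 86.6 in WT oxLDL, and at 90.5 in KO untreated against 80.5 in WT untreated cells. Nqo1 and Keap1 could not be tested, because the fit described next needs a call in every library.

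To compare libraries on a common footing, the 17343 regions called in all 12 were ranked by score within each library, the ranks were turned into normal scores, and limma was fitted to all of them with cohort as a term. An effect of 1 is 1 standard deviation of that ranking. Baf60a KO and WT differed at 5 of 17343 regions after Benjamini-Hochberg adjustment, all higher in KO (0.0288%), and none of the 5 lies in a window of the 10 genes. That count was 0 in the ApoE KO cohort alone and 69 without the Omni-ATAC KO oxLDL library. oxLDL and untreated cells differed at 0 (limma, background 0%), with 1589 at an unadjusted p under 0.05 (9.16%). The windows hold 41 of these shared regions. Genotype reached an unadjusted p under 0.05 at 2 of 41 (4.88%), against 2604 of all 17343 (15%), and oxLDL at 7 of 41 (17.1%). The interaction of genotype with oxLDL was called at 0 regions in all, with 758 at an unadjusted p under 0.05 (4.37%) and 1 of them in the windows.

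**Figure D2:**
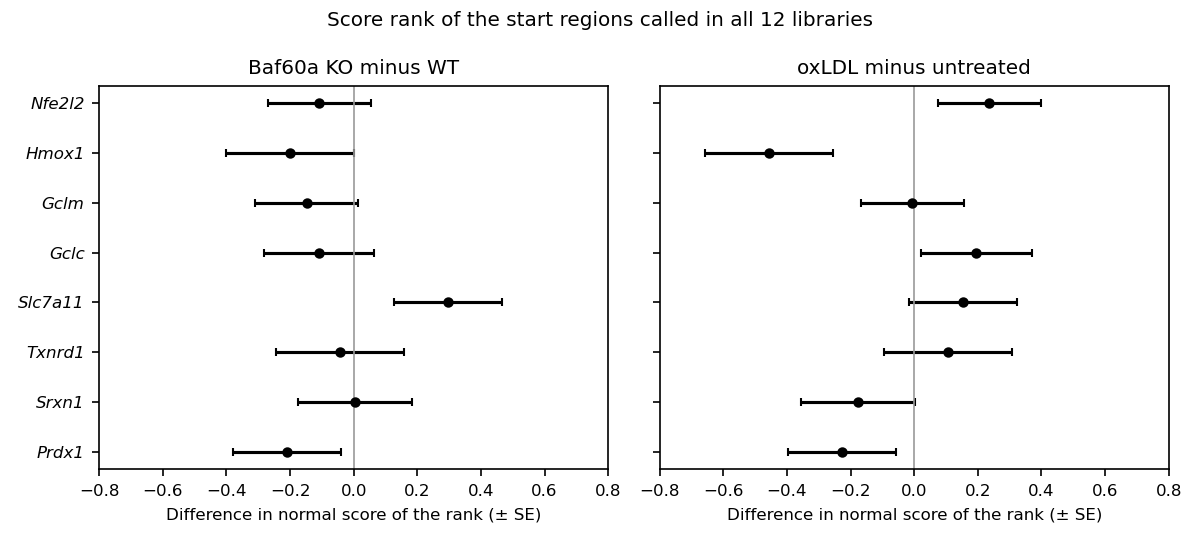
Difference in the normal score of the score rank (horizontal axes, points with bars of ± 1 SE from limma over 12 libraries) at the 8 start regions called in every library, for Baf60a KO minus WT (left) and oxLDL minus untreated (right). None passed the adjusted p of 0.05; Slc7a11 lies farthest above 0 for KO minus WT at 0.30, and Hmox1 farthest below 0 for oxLDL minus untreated at -0.46.

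No start region passed the adjustment. With all 12 libraries Hmox1 had the treatment effect farthest from 0 and Slc7a11 the genotype effect, but that order depended on the libraries used. Without WT oxLDL replicate 1 the Hmox1 treatment effect was -0.29 and that of Nfe2l2 0.29, and the Slc7a11 genotype effect was 0.20 and that of Hmox1 -0.36. Without the 3 libraries marked L001 in their deposited names, Srxn1 and Hmox1 were both at -0.45 for treatment, and for genotype Prdx1 was at -0.30 and Slc7a11 at 0.28. Hmox1 encodes heme oxygenase 1, which opens the heme ring to release iron, carbon monoxide and biliverdin. Its start region (chromosome 8, 75093273 to 75094167) had list percentiles of 86.1 and 79.3 in KO oxLDL, 50.5 and 72.8 in WT oxLDL, 86.1 and 73.3 in KO untreated, and 89.4 and 92.2 in WT untreated libraries of the ApoE KO cohort. On this scale the 2 WT untreated libraries were the highest and the 2 WT oxLDL libraries the lowest. In the shared ranking the WT untreated libraries were still the highest (both 82.4), while WT oxLDL (27.1 and 62.1) overlapped KO oxLDL (71.9 and 60.2) and KO untreated (64.5 and 50.2). Percentiles in the Omni-ATAC cohort were 76.5 in KO oxLDL, 81.3 in WT oxLDL, 86.9 in KO untreated and 89.9 in WT untreated cells. In the shared ranking the region averaged a percentile of 44.8 with oxLDL against 60.5 without. That difference was -0.46 ± 0.201 (SE, 12 libraries; limma, unadjusted p = 0.0375, adjusted p = 0.512). The interaction was 0.86, with an adjusted p of 0.989. For genotype Hmox1 gave -0.20 ± 0.201 (limma, adjusted p = 0.669).

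Slc7a11 averaged a shared percentile of 49.1 in KO against 37.9 in WT libraries, a difference of 0.30 ± 0.170 (SE, limma adjusted p = 0.425). The strong region inside the gene next to it (50437909 to 50439273) gave 0.31 ± 0.183 (limma, adjusted p = 0.439). For the other 6 starts the genotype effect lay between -0.21 (Prdx1) and 0.00 (Srxn1), with every adjusted p at 0.578 or more in limma. Their oxLDL effect lay between -0.23 (Prdx1) and 0.24 (Nfe2l2), with every adjusted p at 0.696 or more.

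Away from the starts, the largest differences were near Txnrd1. An intergenic region past that gene (chromosome 10, 82899463 to 82900631) had percentiles of 87.4 and 90.4 in KO oxLDL, 53.5 and 48.6 in WT oxLDL, 77.2 and 70.7 in KO untreated, and 54.7 and 74.7 in WT untreated libraries of the ApoE KO cohort. KO exceeded WT with oxLDL and overlapped it without. The genotype effect was 0.49 ± 0.206 (limma, adjusted p = 0.284). A region (82813951 to 82814971) lay at -19.5 kb from the first listed start of Txnrd1 (82833951). The Txnrd1 start region described above does not cover that start. This upstream region gave 0.46 ± 0.174 (limma, adjusted p = 0.242), the lowest adjusted p for genotype in any window. With oxLDL, a further region past Txnrd1 (82913678 to 82914508) averaged a shared percentile of 11.9 against 26.7 in untreated cells. Its effect was -0.73 ± 0.221, the lowest adjusted p for treatment in the windows at 0.315 (limma). In the same contrast a region before Prdx1 (116672719 to 116673310) gave 0.57 ± 0.232 (limma, adjusted p = 0.471). It had 81.7 and 77.5 in KO oxLDL and 69.3 and 71.3 in WT oxLDL, against 67.8 and 66.5 in KO untreated and 31.6 and 80.9 in WT untreated libraries of the ApoE KO cohort, so treated and untreated overlapped.

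Over all 41 shared window regions the median genotype effect was -0.04, with 17 above 0 and 24 below. For all 17343 it was -0.02, with 47.5% above 0. The median oxLDL effect was 0.04, with 25 above and 16 below, against 0.01 for all, with 52.7% above 0. Peak widths, as log2 centred on each library, were a median of 0.08 wider with oxLDL (31 regions above 0 and 10 below). Over all shared regions that median was 0.02, with 55.5% above 0. For KO minus WT the median width difference was -0.04 (18 above 0 and 23 below). Over all shared regions it was -0.02, with 45.9% above 0.

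Other pathway genes gave the same number of calls, 0 for either contrast. Their start regions had a KO minus WT effect below 0 at 32 of 37, with a median of -0.20, and above 0 at 5. The effect was also below 0 at 70.0% of the 7856 shared regions over any autosomal protein-coding start, whose median was -0.12. All 10 of the regulators and partners of NRF2 lay below 0 (median -0.22). Among these Mafk, a small MAF partner, was at -0.58 ± 0.181 (limma, adjusted p = 0.179) and Mafg at -0.46 ± 0.221 (limma, adjusted p = 0.345). Of the glutathione and thioredoxin enzymes 2 were above 0 and 11 below, with glutathione synthetase, Gss, at -0.65 ± 0.207 (limma, adjusted p = 0.185) and the membrane glutathione transferase Mgst1 at 0.69 ± 0.211 (limma, adjusted p = 0.173). The 5 heme and iron genes in the fit were all below 0, the ferritin genes Fth1 and Ftl1 at -0.38 and -0.35. NADPH enzymes had 1 above 0 and 3 below, and detoxification and transport genes 2 and 3. With oxLDL 23 of the 37 lay above 0 and 14 below (median 0.07), while 40.0% of all start regions lay below 0. The lowest adjusted p in limma was 0.315 for Mgst1 (0.73), followed by 0.347 for Maff (-0.65), another small MAF protein.

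Regions of the windows were sorted by where they were called. Of 212 window regions, 41 (19.3%) were called in all 12 libraries, against 11.997% of all 144562 autosomal regions. Regions called in the Omni-ATAC cohort alone made up 55.7%, against 60.8%, and those called in the ApoE KO cohort alone 3.30%, against 3.65%. Prdx1 had the most shared regions at 7 of 24, followed by Hmox1 with 6 of 24. Nfe2l2 had 5 of 26, Gclm 5 of 23, Txnrd1 5 of 29 and Gclc 4 of 24. Keap1 had 3 of 21, Slc7a11 3 of 17, Srxn1 2 of 11 and Nqo1 1 of 13. When each list was reduced to the length of the shortest in its cohort (24397 or 82177 peaks), a window held 4.9 to 5.8 peaks on average in the ApoE KO cohort, against 2.85 to 3.06 for all genes. In the Omni-ATAC cohort it held 11.8 to 14.4, against 8.70 to 9.13.

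Peaks in the windows numbered 74 and 70 in KO oxLDL, 55 and 51 in WT oxLDL, 82 and 68 in KO untreated, and 55 and 70 in WT untreated libraries of the ApoE KO cohort. Both KO oxLDL libraries exceeded both WT oxLDL libraries, and the untreated genotypes overlapped. Their whole lists differ in the same way. At equal length the counts were 55 and 58 in KO oxLDL, 49 and 51 in WT oxLDL, 52 and 54 in KO untreated, and 53 and 50 in WT untreated libraries. Omni-ATAC libraries had 155 in KO oxLDL, 144 in WT oxLDL, 199 in KO untreated and 154 in WT untreated cells, while at equal length they had 133 in KO oxLDL, 144 in WT oxLDL, 118 in KO untreated and 120 in WT untreated cells.

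Calls that separate the genotypes were rare. A region called in at least 5 of 6 KO and at most 1 of 6 WT libraries occurred 55 times among all 147937 (0.0372%), and 1 of the 212 window regions met this rule: the region over the end of Hmox1. The reverse was met by 2 regions genome-wide (0.00135%), and by 0 in the windows. For oxLDL over untreated the rule was met by 0 regions anywhere, and for untreated over oxLDL by 58 (0.0392%), of which 0 lay in the windows. Some regions with more KO than WT calls did not meet the genotype rule. A region inside Slc7a11 (50381572 to 50383144) had 6 KO and 3 WT calls. A region past the end of Srxn1 (152111882 to 152112318) had 6 and 3. A region past the end of Prdx1 (116700687 to 116701831) had 5 and 2. The share of all regions with such counts is not given here. The Hmox1 end region was known from the earlier view of these data, so its genotype contrast is a description without a test.

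**Figure D3:**
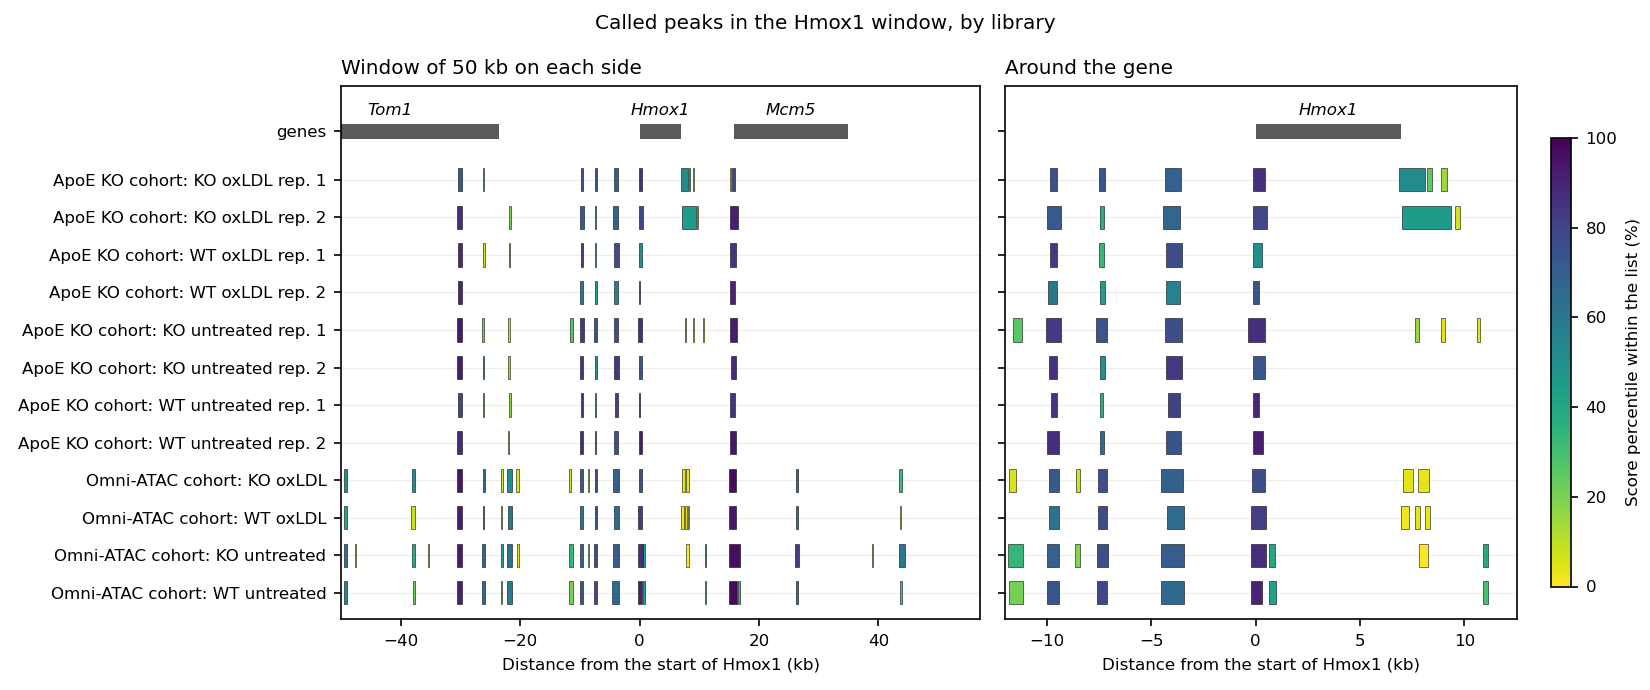
Peaks called in each library (rows) against distance from the start of Hmox1 (horizontal axis, kb), over the whole window (left) and around the gene (right); bar length is peak width, colour is the score percentile within that library's list, and grey bars mark the genes. The start and 4 upstream regions appear in all 12 rows, while the broad blocks past the end of Hmox1 are in the 2 KO oxLDL rows of the ApoE KO cohort.

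The Hmox1 window holds 24 regions, of which 6 were called in all 12 libraries. They are the Hmox1 start, 4 regions before it and the start of the next gene, Mcm5, which encodes a subunit of the replicative helicase. Hmox1 is known for upstream enhancers that respond to NRF2 and BACH1. The region nearest the start (75089064 to 75090184, centred at -3.99 kb) was at percentiles 69.5 and 67.5 in KO oxLDL, 77.3 and 55.5 in WT oxLDL, 76.4 and 84.2 in KO untreated, and 80.8 and 74.4 in WT untreated libraries of the ApoE KO cohort. It ranged over 65.4 to 70.8 in the Omni-ATAC cohort, and genotypes overlapped within each treatment. The next (75085979 to 75086517, at -7.37 kb) was at 73.1 and 36.6 in KO oxLDL, 33.1 and 44.0 in WT oxLDL, 73.5 and 50.0 in KO untreated, and 35.9 and 64.5 in WT untreated libraries of the ApoE KO cohort, and at 76.3 to 78.7 in the Omni-ATAC cohort. Both its genotypes and its treatments overlapped. The third (75083567 to 75084300, at -9.685 kb) was at 75.5 and 72.1 in KO oxLDL and 83.2 and 60.0 in WT oxLDL libraries of the ApoE KO cohort. Untreated libraries there had 83.4 and 85.7 in KO and 85.6 and 87.1 in WT. On this scale every untreated library of that cohort was above every oxLDL library, at the closest 83.4 against 83.2. In the Omni-ATAC cohort the region ranged over 63.0 to 73.1 and the treatments overlapped. Its oxLDL effect over all 12 libraries was -0.22 (limma, adjusted p = 0.764). The fourth (75062982 to 75063956, at -30.1 kb, within Tom1) ranged over 73.0 to 93.2 in the ApoE KO cohort and 90.8 to 94.4 in the Omni-ATAC cohort. The Mcm5 start ranged over 79.2 to 94.1 in the ApoE KO cohort and 94.3 to 97.6 in the Omni-ATAC cohort. None of these 5 passed the threshold for genotype or treatment in limma, with a lowest adjusted p of 0.691 for genotype and 0.764 for oxLDL.

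The other 17 regions of the window besides the end region were called in 1 to 10 libraries. The most frequent lay at -21.8 kb from the Hmox1 start, called in 5 KO and 5 WT libraries, and at -26.1 kb, called in 5 KO and 4 WT libraries. A set of 5 sites, within Tom1, within Mcm5 or intergenic, was called in all 4 Omni-ATAC libraries and in 0 of 8 ApoE KO cohort libraries. A site 0.792 kb into the gene was called in the KO and the WT untreated Omni-ATAC library, at percentiles 39.4 and 42.2, and in neither oxLDL library of that cohort. A site 11.002 kb past the start had the same calls, at 39.8 and 29.2. Single-library calls made up 5 of the 24 regions.

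The end region of Hmox1 spans 2488 bp (chromosome 8, 75100495 to 75102982), from 98 bases before the annotated gene end onward. The gene runs on the plus strand, from general knowledge. Peaks were called there in both KO oxLDL libraries of the ApoE KO cohort, at percentiles 52.4 and 45.2, and in neither WT oxLDL library. They were also called in 1 KO untreated library, at 15.5, and in no WT untreated library. In replicate 1 of KO oxLDL the strongest peak was 1233 bp wide, in replicate 2 it was 2336 bp wide, and their deposited fold enrichments were 3.15 and 2.62. The median over all peaks of these libraries was 3.68 and 3.40, so these are broad peaks of modest height. In the Omni-ATAC cohort the region was among the weakest peaks: 4.65 in KO oxLDL against 3.94 in WT oxLDL, and 0.394 in KO untreated cells against no call in WT untreated cells. With oxLDL in that cohort KO and WT were thus both called and lay close together. Peaks of both KO oxLDL libraries of the ApoE KO cohort remained at a score of at least 50 and at equal list length. The KO untreated and Omni-ATAC KO peaks did not, and the region no longer met the rule. At equal length the Omni-ATAC WT oxLDL library, the shortest list of its cohort, kept its call while Omni-ATAC KO oxLDL did not. Regions with exactly the same 12 calls numbered 2 of the other 147936 (0.00135%), inside Prss12 and inside Cdon. A match in 11 or more libraries was found for 421.

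Both of these KO oxLDL libraries also had peaks past the ends of other genes of the set. This was seen in the data and followed up afterwards, so it is given as counts without a test. In the 5 kb past the end, both KO oxLDL libraries and neither WT oxLDL library of the ApoE KO cohort had a peak at 4 of the 10 genes: Hmox1, Prdx1, Gclm and Srxn1. Of the 16458 genes with a known strand 204 did so (1.24%), and 17 showed the reverse (0.103%), with 0 of the 10 genes among them. The KO oxLDL lists were longer than the WT oxLDL lists. At equal list length 75 genes had the first pattern and 63 the reverse, and Prdx1 and Hmox1 were the 2 of the 10 genes with the first. A peak in this zone was present at 16.4% and 17.1% of genes in KO oxLDL against 14.4% and 13.1% in WT oxLDL libraries. Of the 10 genes 6 and 5 had one in KO oxLDL against 1 and 1 in WT oxLDL libraries. Untreated libraries had 5 and 3 in KO against 1 and 4 in WT, so there the genotypes overlapped, and over all genes the share was 21.2% and 16.2% in KO against 15.1% and 19.7% in WT. In the Omni-ATAC cohort 7 of the 10 genes had such a peak in KO oxLDL and 7 in WT oxLDL, against 8 in KO untreated and 7 in WT untreated cells. The share over all genes in that cohort was 35.6% in KO oxLDL and 32.5% in WT oxLDL, against 46.6% in KO untreated and 39.4% in WT untreated cells.

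**Figure D4:**
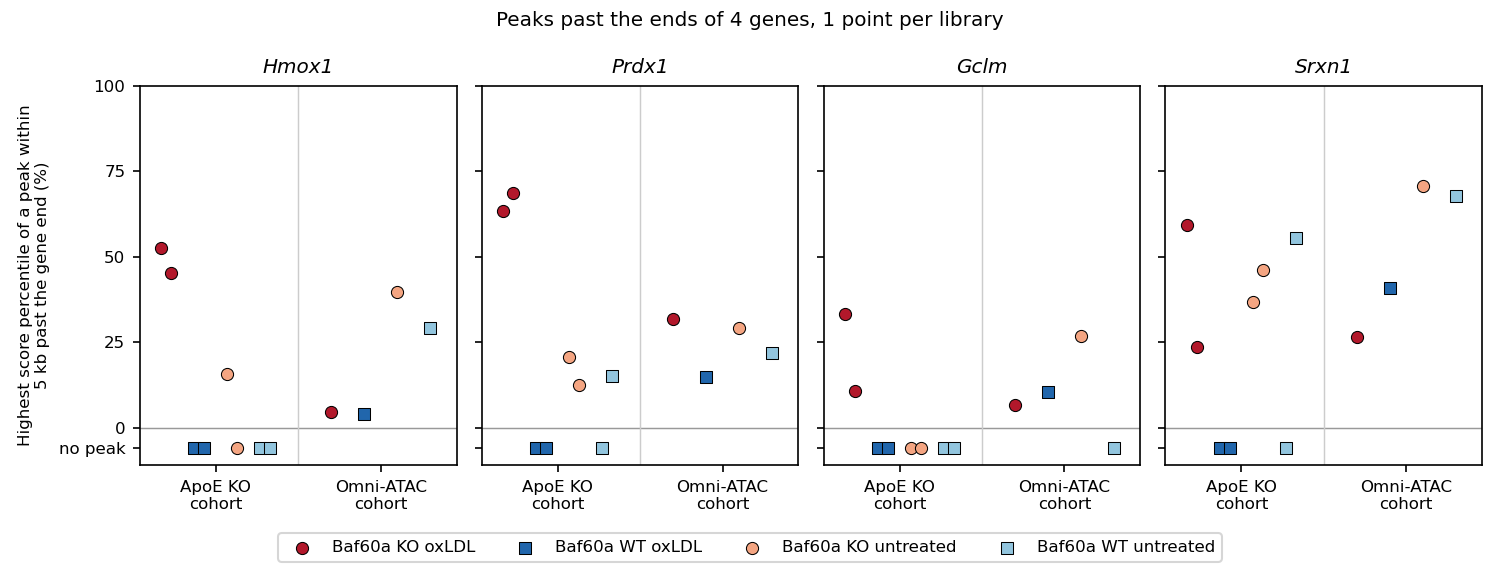
Highest score percentile (vertical axis, %) of a peak within 5 kb past the end of Hmox1, Prdx1, Gclm and Srxn1, 1 point per library, for the ApoE KO cohort (left of each panel) and the Omni-ATAC cohort (right); colour and symbol give genotype and treatment, and points under the line at 0 had no peak. Both KO oxLDL libraries of the ApoE KO cohort have a peak at all 4 genes and neither WT oxLDL library does; the highest Omni-ATAC points of Hmox1 belong to another region, 3896 bp or more past the end.

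Past the end of Prdx1 there were 2 such regions. The farther one (116702125 to 116704136), which also overlaps the end of the neighbouring gene Mmachc, was at percentiles 63.5 and 68.7 in KO oxLDL libraries of the ApoE KO cohort and was not called in either WT oxLDL library. KO untreated libraries had 20.6 and 12.4, and 1 of the 2 WT untreated libraries had 15.02. Both KO oxLDL libraries were thus above every other library of the cohort. Peaks there reached 938 bp and 1685 bp in the KO oxLDL libraries, with fold enrichments of 3.93 and 3.61. Omni-ATAC libraries had 9.20 in KO oxLDL and 13.7 in WT oxLDL, with no call in KO untreated and 21.8 in WT untreated cells. The nearer Prdx1 region (116700687 to 116701831) was at 40.4 and 57.7 in KO oxLDL, uncalled in WT oxLDL, at 14.7 in 1 KO untreated library and uncalled in WT untreated libraries. All 4 Omni-ATAC libraries called it, at 31.9 in KO oxLDL, 14.9 in WT oxLDL, 29.1 in KO untreated and 9.71 in WT untreated cells, with KO above WT in both treatments.

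The Gclm region (122270908 to 122271894) begins 3693 bp past that gene and lies 2520 bp from Dnttip2. It was called with oxLDL alone: at 33.3 and 10.8 in KO oxLDL libraries of the ApoE KO cohort and in neither WT oxLDL library, and at 6.55 in KO oxLDL and 10.5 in WT oxLDL cells of the Omni-ATAC cohort. No untreated library had it. The peaks of the 2 ApoE KO cohort libraries do not overlap each other. They lie 4338 to 4679 bp past the gene end in replicate 1 and 3693 to 4273 bp past it in replicate 2. The Omni-ATAC KO oxLDL peak (4256 to 4623 bp) joined them into 1 region. Among all 147937 regions 2 were called in 4 or more oxLDL libraries and 0 untreated libraries (0.00135%). The Gclm region was 1 of them, and its count of 4 rests on that joining. The opposite pattern, at least 4 untreated and 0 oxLDL libraries, was met by 101 regions (0.0683%), and by 0 of the window regions. Past Srxn1 the region was small, 153 to 402 bp wide. It was at 59.4 and 23.7 in KO oxLDL and uncalled in WT oxLDL libraries, and at 36.7 and 46.0 in KO untreated against 55.4 in 1 WT untreated library. The Omni-ATAC cohort called it in every library, at 26.5 in KO oxLDL and 40.8 in WT oxLDL, and at 70.7 in KO untreated and 67.9 in WT untreated cells. Txnrd1 had an end peak in all 12 libraries and Nfe2l2 in 3 of 8 ApoE KO cohort libraries, while Slc7a11 and Gclc had none in any library.

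A last difference in calls lay inside Slc7a11 (50381572 to 50383144). It was at 30.3 and 26.6 in KO oxLDL libraries and uncalled in both WT oxLDL libraries, and at 39.4 and 55.9 in KO untreated against 15.02 in 1 WT untreated library of the ApoE KO cohort. In that cohort every KO library had the region and 1 of 4 WT libraries did. The share of all regions with such calls is not given here. KO lists of that cohort held 33267 to 44524 peaks and WT lists 24397 to 39303. Omni-ATAC libraries held it as a strong, broad peak in both genotypes: 84.6 in KO oxLDL against 74.6 in WT oxLDL, and 89.0 in KO untreated against 81.9 in WT untreated cells, with widths of 1284 to 1573 bp.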

How the data were processed

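Peak lists of 12 BMDM ATAC-seq libraries were used, 1 per library, in build mm10. Per the submitters' processing notes, MACS2 (ApoE KO cohort) or MACS3 (Omni-ATAC cohort) was used with Bowtie2 2.3.4.1, SAMtools 1.2, bedtools 2.28.0, Picard, FastQC, cutadapt and Trim Galore. Whether reads were shifted for the transposase, and other parameters, was not given in the sources used here. Each peak has a caller score deposited by the authors, at least 13. The ApoE KO lists also hold a fold enrichment and a -log10 q deposited by the authors; there 44 of 267649 peaks had a score other than 10 times that value, rounded down. Read depth is unknown, so no counting interval is given.

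Peaks overlapping by 1 bp or more were merged. Regions called in 12 of 12 libraries were ranked, and limma 3.58.1 (R 4.3.3) was fitted to normal scores of the ranks for 4 genotype-by-treatment groups with cohort as a term, using all 12 libraries, with Benjamini-Hochberg adjustment over 17343 regions and a threshold of 0.05. On simulated data with 200 regions shifted by 1, this recovered 164, with 10 false calls. The simulated noise was independent between libraries, without a cohort difference. The largest genotype effect in the windows was 0.49, and recovery at that size was not tested. Gene positions came from RefSeq (GRCm38.p6); strand came from its promoter table, and from general knowledge for Hmox1 and Gclc. Named were the regions over the 10 starts, all regions of the Hmox1 window, regions past a threshold or call rule, and regions with the 12 calls of the Hmox1 end region; others named here, including the window regions with the lowest adjusted p and those past gene ends, were chosen after their values were seen. The 10 genes and all lists were chosen with earlier results of these data known. Of 66 library pairs, 0 held identical lists. Within the ApoE KO cohort 3 libraries, KO oxLDL replicate 1 and both WT untreated ones, are marked L001 in their deposited names. Python 3.11.15 with pandas 2.3.3 did the rest.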

Additional observations from a re-analysis of the deposited data

Results flagged for a closer look

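At the Srxn1 start, oxLDL and untreated libraries of the ApoE KO cohort moved in opposite directions in the 2 genotypes. In KO both oxLDL libraries were below both untreated ones (87.1 and 86.9 against 95.6 and 88.9, percentile among the shared regions), and in WT both oxLDL libraries were above both untreated ones (89.3 and 92.4 against 81.7 and 85.9). The mean difference in KO minus that in WT was -12.2 percentile points. On the percentile within each full list the WT libraries of this cohort overlapped (93.2 and 94.5 with oxLDL against 89.0 and 93.8 untreated). Both WT untreated libraries and KO oxLDL replicate 1 are marked L001 in their deposited names; the part of this in the result was not tested. In the Omni-ATAC cohort oxLDL was lower in both genotypes (22.2 against 40.6 in KO and 30.0 against 50.9 in WT, among the shared regions). Within the ApoE KO cohort the difference was not tested; in limma over all 12 libraries the interaction was -0.45 (adjusted p = 0.989).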

How the results depend on the processing

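No start region of the 8 testable genes was called under any alternative. The number of regions called for KO versus WT, 5 as reported, was 2 with the replicate block, 0 on the log2 score, 3 at a score of at least 50, 1 with lists of equal length, 0 in the ApoE KO cohort alone and 0 with the 3 libraries marked L001 left out. Leaving out 1 library at a time gave 0 to 69, the highest without the Omni-ATAC KO oxLDL library and 19 without its WT untreated library. It was 0 without the Omni-ATAC WT oxLDL, the Omni-ATAC KO untreated or either ApoE KO cohort KO oxLDL library. In that cohort it was 1 without WT oxLDL replicate 2 or WT untreated replicate 2, 2 without WT untreated replicate 1 and 3 without KO untreated replicate 2. For oxLDL, 0 as reported, this gave 0 to 4, the highest without WT oxLDL replicate 1. Replicate numbers did not pair libraries (correlations of deviations from -0.109 to 0.0529), and the block changed no call in the windows.

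Several start regions changed sign. For KO minus WT, the ApoE KO cohort alone gave 0.0335 for Nfe2l2 and 0.0240 for Txnrd1, and without the L001 libraries Txnrd1 was at 0.0809 and Srxn1 at -0.282, against 0.0047 as reported. For oxLDL, Gclm was at 0.0674 on the log2 score and 0.0445 in the ApoE KO cohort alone, which put Txnrd1 at -0.105 and Srxn1 at 0.00334. Srxn1, -0.176 as reported for oxLDL, was at -0.451 without the L001 libraries. Leaving out 1 library gave -0.129 to 0.107 for Txnrd1 and -0.0777 to 0.147 for Srxn1 (KO minus WT), and -0.0954 to 0.0662 for Gclm and -0.0254 to 0.261 for Txnrd1 (oxLDL minus untreated). The cause of these changes was not tested.

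The Hmox1 end region lost its place in the call rule at a score of at least 50 (0 regions) and at equal length (0), and left-out libraries gave 0 to 2. Window peaks per library averaged 65.6 in the ApoE KO cohort (52.8 at equal length, 53.1 at a score of at least 50, 34.4 with 10 kb windows) and 163 in the Omni-ATAC cohort (129 at equal length, 71.8 with 10 kb). Gene ends with the KO oxLDL pattern, 4 of 10, were 2 at equal length, 3 with a 3 kb zone and 3 at a score of at least 50. Over all 16458 genes the 3 kb zone gave 152 with the pattern and 17 with the reverse. A score of at least 50 gave 239 and 6. These alternatives were chosen after seeing the data.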
